A study of Mus musculus with 6 samples.

Results

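Integrins are the receptors through which cells hold the extracellular matrix. The transcripts described here are those of the integrin chains, of the cytoplasmic proteins that tie integrins to actin, and of 6 other receptors for matrix, in 4T1 cells, a mouse mammary carcinoma line. Members were the gene symbols that open with Itga or Itgb followed by a subunit number or letter, together with a fixed list of adaptors and matrix receptors. Of 48587 genes in the deposited table, 46 were members: 27 integrin subunits, 13 adaptors and kinases, and 6 matrix receptors. The integrin pattern matched 31 symbols, of which 4 (Itgb3bp, Itgb1bp1, Itgb1bp2 and Itgbl1) are not subunits and were left out. Total RNA was read in 3 libraries of 4T1 cells stably transfected with full-length Mettl7a1 cDNA in a CMV promoter vector (METTL7A1) and in 3 libraries of mock-transfected 4T1 cells (mock). The transfectants were kept in medium with G418. METTL7A1 is a putative methyltransferase, and the comparison asks which transcripts differ when it is overexpressed. The labels number the libraries as replicates, and the study's methods describe biological triplicates. No source used here states whether the transfectants were a pool or 1 clone, so the p-values measure the spread between these cultures.

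An integrin is a pair of an alpha and a beta chain, and neither chain reaches the cell surface well without a partner. The alpha chain largely sets the ligand: RGD-containing proteins such as fibronectin and vitronectin, laminins, collagens, or the counter-receptors that leukocytes bind through the beta2 family. Talins and kindlins bind the beta tail and switch the receptor on. The ILK, PINCH and parvin complex, vinculin, paxillin, zyxin and focal adhesion kinase build and signal from the adhesion. Syndecans and CD44 carry or bind glycosaminoglycans, and DDR1 is a receptor tyrosine kinase for collagen. In mammary carcinoma cells these proteins are known for their part in adhesion, spreading and migration.

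The libraries held 18386780 to 28459338 counts. Mettl7a1 itself was at 1.17 to 1.64 cpm (a gene's count relative to the TMM-scaled total of its library) in mock and at 342 to 422 cpm in METTL7A1 libraries, as the labels say. Of 9 epithelial and 4T1 markers, 8 passed the abundance filter and Krt5 was at 0 in all libraries. Krt8, Krt18, Krt19, Epcam and Cdh1 did not pass the test between groups, Krt14 (log2 fold change -1.94) and Vim (-1.16) fell, and Krt7 (0.50) rose. Of 7 lymphocyte markers, none had more than 3 counts in a library. These were bulk libraries, in which more cells carrying a transcript and more RNA per cell cannot be told apart.

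Of the 46 members, 35 reached 1 cpm in at least 3 libraries and were tested, and each of these 35 reached 1 cpm in all 3 libraries of both groups. The groups were tested against each other with edgeR (quasi-likelihood F test) over 13166 genes, with Benjamini-Hochberg adjustment over all of them, and a gene was called at an adjusted p under 0.05. By this rule 15 of 35 members (42.9%) were called, beside 42.1% of all genes tested, so the share is near the background and is not a result about the members. Of these, 6 were higher in METTL7A1 cells (21.1% of all genes were) and 9 were lower (21% of all genes were). The median log2 fold change was -0.15 over the 35 members and -0.03 over all genes tested. At the thresholds of the study (adjusted p under 0.01 and a log2 fold change over 1.5 either way), 1 member, Itgb2, was called, against 2.48% of all genes. The libraries of the 2 groups did not overlap for 19 of 35 members, against 51.6% of all genes.

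**Figure D1:**
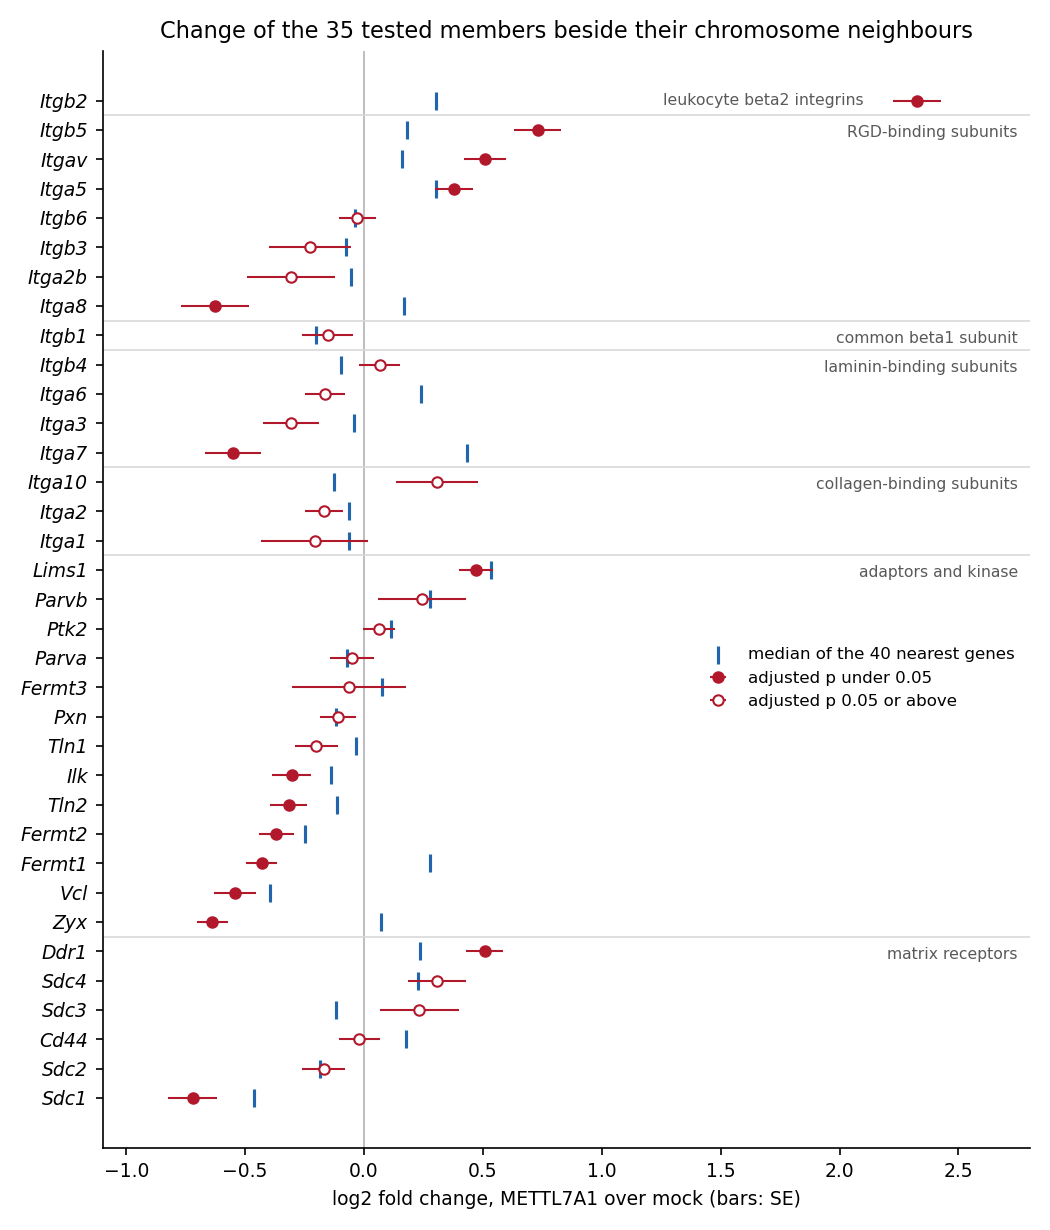
Log2 fold change of METTL7A1 over mock (x axis, points with SE bars) for the 35 tested members (y axis, by class), with filled points at an adjusted p under 0.05 and blue ticks at the median change of the 40 genes nearest on the chromosome. Itgb2 stands at 2.33, every other member lies between -0.72 and 0.73, and several called members (Itga5, Lims1, Vcl, Fermt2) lie near their blue tick.

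Each member was also set beside its chromosome neighbours, the 40 nearest genes with an average log2 cpm over 2. When the median change of the neighbours was taken out as an offset, 9 of 35 members were called, beside 31.5% of all genes in that fit. Of the 15 calls, 8 were kept: Itgb2, Itgav, Itgb5, Itga8, Itga7, Zyx, Fermt1 and Ddr1. The 7 that were lost are named with their values where they are described. What sets the shift of a region was not tested.

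Itgb2, the beta2 chain of the leukocyte integrins (chr10:77530252-77565686, + strand, mm10), had the largest change of all members, while its alpha partners were at or near 0. Itgb2 had 1585, 1844 and 1631 counts in the mock libraries (86.6, 76.1 and 65.7 cpm) and 7026, 11723 and 9103 counts in the METTL7A1 libraries (379, 397 and 369 cpm). Each METTL7A1 library thus stood far above each mock library. The log2 fold change was 2.33 ± 0.10 (SE, n = 3 per group), a 5.02-fold rise, with an adjusted p of 5.73e-08 by edgeR's quasi-likelihood test. Its neighbours had a median log2 change of 0.30.

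The beta2 chain is known to pair with alphaL, alphaM, alphaX and alphaD. Itgal and Itgad had 0 counts in all 6 libraries, Itgam had at most 3 counts and Itgax at most 2. Together these 4 partners had 2 to 4 counts in a METTL7A1 library and 1 or 2 in a mock library. Itgal and Itgad share their detection limit of 3 counts, which for Itgal allows at most 0.0159 to 0.0257 RPKM (counts per kilobase of exon, scaled as cpm, used as the level per length). Against that floor, set in each library, the level per length of Itgb2 was at least 5032-fold higher than that of Itgal in the METTL7A1 libraries and at least 1135-fold higher in the mock libraries. Itgb2l, a beta2-like gene, also had 0 counts in every library.

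Markers of leukocytes were read in the same libraries. None of the 5 common leukocyte markers was tested, their highest count in a library was 8 (Ptprc, which encodes CD45), and 3 of the 5 (Laptm5, Cd53 and Cd52) had at most 3 counts. Their summed level was 0.372 to 0.608 cpm in METTL7A1 and 0.289 to 0.547 cpm in mock libraries. Of 7 macrophage and monocyte markers, 3 were tested and all 3 were higher in METTL7A1 cells: Csf1r (log2 fold change 1.68), Cd68 (1.23) and Cd14 (1.47). Adgre1, Lyz2 and Fcgr1, 3 further macrophage markers, had at most 2 counts in a library. The summed level of the macrophage list was 30.0 to 35.2 cpm in METTL7A1 and 12.6 to 14.4 cpm in mock libraries. None of 6 neutrophil markers was tested, and their summed level was 0.862 to 0.973 cpm in METTL7A1 and 0.0805 to 0.219 cpm in mock libraries. Among them S100a8 had 14, 22 and 20 counts in METTL7A1 and 4, 3 and 1 counts in mock libraries. The part of these lists in the Itgb2 result was not tested. Fermt3, which encodes kindlin 3, the kindlin of blood cells, lay at 2.23 to 3.83 cpm in mock and 2.47 to 3.72 cpm in METTL7A1 libraries, with overlapping groups and a log2 fold change of -0.06 ± 0.24 (adjusted p = 0.855).

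**Figure D2:**
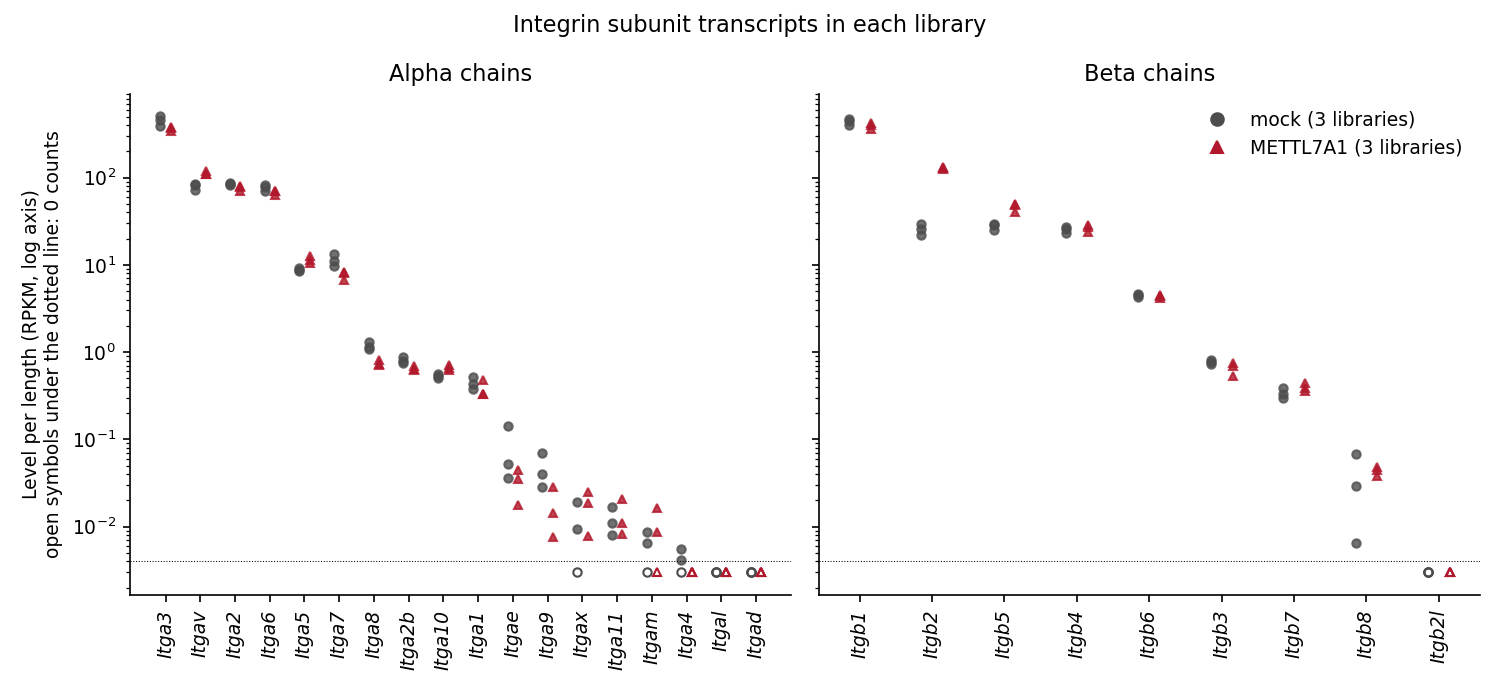
Level per length (RPKM, log axis) of each of the 27 integrin subunits (x axis, alpha chains left and beta chains right) in the 3 mock libraries (circles) and the 3 METTL7A1 libraries (triangles), with open symbols under the dotted line for 0 counts. Itgb2 has the second highest level among the beta chains in METTL7A1 libraries, and Itgal, Itgam, Itgax and Itgad are among the lowest alpha chains, as are Itga4 and Itga11.

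Levels per length put the subunits on a common scale. Among the beta chains of mock cells Itgb1 led at 439 ± 39.2 RPKM (SD, n = 3), and Itgb5 (27.8 ± 2.60), Itgb2 (25.6 ± 3.53) and Itgb4 (25.4 ± 1.91) followed with libraries that overlapped each other. In METTL7A1 cells Itgb1 was at 395 ± 29.8 RPKM, Itgb2 at 128 ± 4.75, Itgb5 at 46.0 ± 5.27 and Itgb4 at 26.6 ± 2.46, and the libraries of these 4 chains no longer overlapped. Itgb2 made up 5.44, 4.57 and 4.68% of the summed beta-chain level in the mock libraries and 22.7, 21.1 and 20.5% in the METTL7A1 libraries. The share of Itgb1 was 83.8 ± 0.76% in mock and 65.6 ± 1.29% in METTL7A1 cells, although Itgb1 itself did not pass the test. Among the alpha chains Itga3 led in both groups, with 63.0 ± 1.94% of the summed level in mock and 56.7 ± 0.60% in METTL7A1 cells, and Itgav moved from 11.1 ± 0.48% to 17.5 ± 0.51%.

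The summed level of all alpha chains was 637 to 774 RPKM in mock and 616 to 673 RPKM in METTL7A1 libraries, and these ranges overlap. The summed level of all beta chains was 473 to 561 RPKM in mock and 563 to 634 RPKM in METTL7A1 libraries. Without Itgb2 the beta sums were 497 ± 43.1 RPKM and 473 ± 34.0 RPKM and overlapped. The ratio of summed alpha to summed beta level was 1.37 ± 0.07 in mock and 1.07 ± 0.06 in METTL7A1 cells. Sums and shares are descriptions, with no test.

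**Figure D3:**
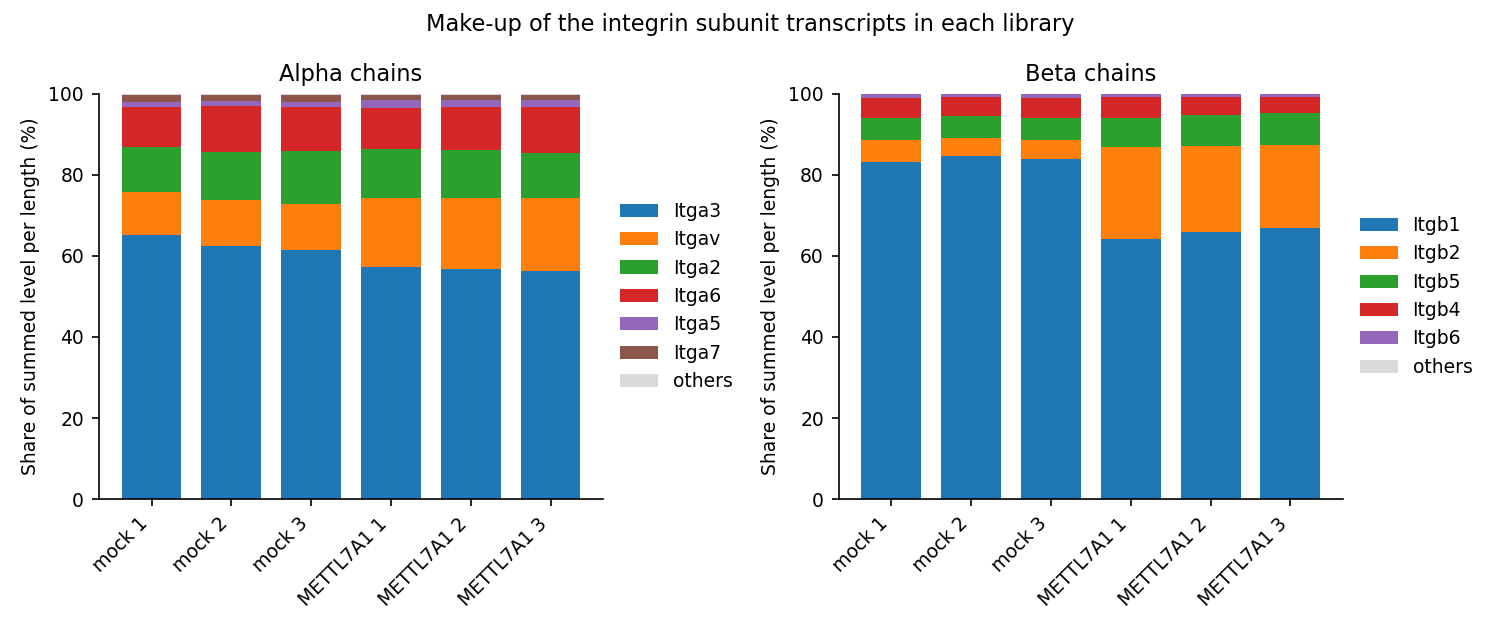
Share of the summed level per length (y axis, percent) taken by each integrin subunit in each of the 6 libraries (bars), for alpha chains on the left and beta chains on the right, with all remaining subunits in grey. Itgb2 takes 20.5 to 22.7% of the beta chains in METTL7A1 libraries and 4.57 to 5.44% in mock libraries, and Itgav takes 17.0 to 18.0% and 10.5 to 11.4% of the alpha chains.

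Of 8 RGD-binding subunits, 7 were tested and 4 (57.1%) were called, beside 42.1% of all genes. Of these, 3 rose (Itgb5, Itgav and Itga5) and 1 fell (Itga8), where 21.1% of all genes were higher and 21% lower. The other 3 did not pass the test. Itgav, the alphav chain of the vitronectin receptors (chr2:83724397-83806916, + strand), lay at 575, 589 and 513 cpm in mock and at 766, 838 and 781 cpm in METTL7A1 libraries. Itgb5, which pairs with alphav alone (chr16:33829665-33949153, + strand), lay at 89.6, 91.7 and 76.8 cpm in mock and at 124, 155 and 149 cpm in METTL7A1 libraries. For both chains of alphavbeta5 every METTL7A1 library was above every mock library. The log2 fold changes were 0.51 ± 0.09 for Itgav (adjusted p = 0.000874) and 0.73 ± 0.10 for Itgb5 (adjusted p = 0.000163), and their neighbours had medians of 0.16 and 0.18. The other tested beta partners of alphav did not share the rise. Itgb1, the most abundant of them, had a log2 fold change of -0.15 ± 0.11 (adjusted p = 0.283). Itgb3 had one of -0.23 ± 0.17 (adjusted p = 0.314) and Itgb6 of -0.03 ± 0.08 (adjusted p = 0.798). Itgb8, also a partner, had at most 14 counts in a library and was not tested.

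Promoter sequences of RefSeq (GRCm38.p6) were found for 33 of the 46 members. Those of Itgav and Itgb5 are shown because the chains of this pair rose together, as the 250 bases before the transcript start, 5′ to 3′ on the gene's strand. In Itgav (chr2:83724147-83724396, + strand) capitals mark GAGGAA, a sequence around GGAA that some ETS factors read. Other GGAA sequences in this window, such as cggaagt, were not searched for and stay in lower case. In Itgb5 (chr16:33829415-33829664, + strand) capitals mark GGGCGG, the GC box read by SP factors. Motifs were searched on both strands and were chosen after the values of the genes were seen.
Itgav: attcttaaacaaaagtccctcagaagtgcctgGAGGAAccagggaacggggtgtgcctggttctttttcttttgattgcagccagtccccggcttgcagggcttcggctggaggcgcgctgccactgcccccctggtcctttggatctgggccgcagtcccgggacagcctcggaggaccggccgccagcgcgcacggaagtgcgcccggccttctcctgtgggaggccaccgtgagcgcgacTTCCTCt
Itgb5: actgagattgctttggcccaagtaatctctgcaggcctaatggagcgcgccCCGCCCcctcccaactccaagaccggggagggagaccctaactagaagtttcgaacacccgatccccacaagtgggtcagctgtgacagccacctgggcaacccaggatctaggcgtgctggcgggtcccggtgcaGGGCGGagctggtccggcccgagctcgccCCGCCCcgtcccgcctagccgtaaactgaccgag
The Itgav window held 2 matches of GAGGAA and none of GGGCGG, and the Itgb5 window held 3 of GGGCGG and none of GAGGAA. Over all 32851 promoters of the table, windows of the same length held GAGGAA in 23.25% and GGGCGG in 32.74%. Among the 33 members with a promoter, 13 held GAGGAA and 17 held GGGCGG. The matches are a description of the letters and not of binding.

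Itga5, the alpha5 chain of the fibronectin receptor (chr15:103344289-103366763, - strand), lay at 40.1, 38.7 and 37.7 cpm in mock and at 54.9, 50.2 and 46.3 cpm in METTL7A1 libraries. The groups did not overlap, and the log2 fold change was 0.38 ± 0.08 (adjusted p = 0.00284). Its neighbours had a median of 0.30, and the call was lost with the neighbour offset (log2 fold change 0.07, adjusted p = 0.516). Itga8, a second RGD-binding partner of beta1 (chr2:12106632-12301922, - strand), was rare and lower, at 7.49, 6.60 and 6.36 cpm in mock and 4.10, 4.77 and 4.30 cpm in METTL7A1 libraries. Its log2 fold change was -0.62 ± 0.14 (adjusted p = 0.00489), against a neighbour median of 0.17. Itga2b, the platelet alphaIIb chain, had 2.17 to 2.35 cpm in METTL7A1 and 2.56 to 3.02 cpm in mock libraries, and its change of -0.31 ± 0.18 did not pass the test (adjusted p = 0.211).

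Itgb1, the common partner of most matrix-binding alpha chains, did not pass the test. It lay at 1513 to 1808 cpm in mock and 1378 to 1594 cpm in METTL7A1 libraries, and the groups overlapped (log2 fold change -0.15 ± 0.11, adjusted p = 0.283).

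Of the 4 laminin-binding chains, Itga7 fell (25% called, beside 42.1% of all genes) and the other 3 did not pass the test. Itga7 (chr10:128933813-128958277, + strand), which forms a laminin receptor with beta1 and is best known from muscle, lay at 53.2, 44.2 and 38.5 cpm in mock and at 33.2, 32.3 and 27.2 cpm in METTL7A1 libraries. The groups did not overlap, and the log2 fold change was -0.55 ± 0.12 (adjusted p = 0.00338). The neighbours of Itga7 moved the other way, with a median of 0.44, and relative to them the difference was -0.98. Itga3, the alpha3 chain of the receptor for laminin-332 and the most abundant alpha chain here, lay at 2650, 2417 and 2055 cpm in mock and at 1929, 2005 and 1818 cpm in METTL7A1 libraries. These groups did not overlap either, but the log2 fold change of -0.31 ± 0.12 missed the threshold (adjusted p = 0.0545). Itga3 passed it in 5 alternatives, namely RLE and upper quartile scaling, DESeq2, limma voom and the fit without mock replicate 3, with adjusted p values over all alternatives of 0.0033 to 0.226. Itga6 and Itgb4, the chains of the hemidesmosome integrin alpha6beta4, had log2 fold changes of -0.16 ± 0.09 (adjusted p = 0.147) and 0.07 ± 0.09 (adjusted p = 0.585). With the neighbour offset Itga6 was called lower, at -0.40 (adjusted p = 0.00449), since its neighbours had a median of 0.24.

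None of the 3 tested collagen-binding alpha chains was called by edgeR's quasi-likelihood test (42.1% of all genes were). The lowest unadjusted p of that test among them was 0.0545, for Itga2. Itga2, the abundant alpha2 chain, lay at 345 to 369 cpm in mock and 293 to 335 cpm in METTL7A1 libraries. Itga1 (1.99 to 2.84 cpm in METTL7A1 and 2.25 to 3.14 cpm in mock) and Itga10 (3.18 to 3.56 cpm in METTL7A1 and 2.51 to 2.85 cpm in mock) were rare. Exons of Itga10 overlap those of Gm42957 on the same strand, so its counts are uncertain. The 2 genes share 1656 sequences of 31 bases, 31.78% of those in the transcripts of Itga10. Itga11, the fourth collagen receptor chain, had at most 3 counts in a library. DESeq2 and the other alternatives called none of these chains.

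The remaining subunits were the alpha4, alpha9, alphaE and beta7 chains, and none was tested. Itga4 had at most 1 count in a library, Itga9 at most 9, Itgae at most 12 and Itgb7 at most 31. The alpha4beta7 and alphaEbeta7 integrins therefore had little transcript of either chain. Together with Itgb8, Itga11, Itgb2l and the 4 partners of beta2, these make up the 11 members under the filter.

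All 13 adaptors and kinases were tested. Of these, 6 fell (Zyx, Vcl, Fermt1, Fermt2, Tln2 and Ilk), 1 rose (Lims1) and 6 did not pass the test. The called share was 53.8%, beside 42.1% of all genes tested. Calls in the lower direction made up 21% of all genes tested. The median log2 fold change of the 13 was -0.20. Of these 7 calls, Zyx and Fermt1 were kept with the neighbour offset.

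Zyx encodes zyxin, a LIM protein that gathers at adhesions under tension (chr6:42349828-42360213, + strand). It lay at 119, 112 and 109.9 cpm in mock and at 70.4, 74.8 and 73.4 cpm in METTL7A1 libraries, and the groups were far apart. The log2 fold change was -0.64 ± 0.07 (adjusted p = 2.91e-05), against a neighbour median of 0.07. Vcl encodes vinculin, which links talin to actin (chr14:20929433-21033673, + strand). It lay at 329, 353 and 321 cpm in mock and at 206, 229.8 and 252 cpm in METTL7A1 libraries, without overlap. The log2 fold change of Vcl was -0.54 ± 0.09 (adjusted p = 0.000537). Its neighbours had a median of -0.39, and the call was lost with the neighbour offset (-0.15, adjusted p = 0.223).

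The kindlins of non-blood cells were both lower. Fermt1 encodes kindlin 1 of epithelia (chr2:132904389-132945906, - strand), and it lay at 124, 120.1 and 131 cpm in mock and at 93.1, 91.3 and 93.3 cpm in METTL7A1 libraries. Its log2 fold change was -0.43 ± 0.07 (adjusted p = 0.000371), while its neighbours had a median of 0.28. Fermt2 encodes kindlin 2 (chr14:45458792-45530118, - strand), and it lay at 63.7, 70.6 and 62.8 cpm in mock and at 49.8, 49.0 and 53.9 cpm in METTL7A1 libraries. Neither gene's groups overlapped. The log2 fold change of Fermt2 was -0.37 ± 0.07 (adjusted p = 0.00237), with a neighbour median of -0.25 and no call under the offset (-0.12, adjusted p = 0.248).

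Talin 2 fell and talin 1 did not pass the test. Tln2 lay at 25.3, 25.7 and 24.0 cpm in mock and at 20.3, 19.9 and 20.1 cpm in METTL7A1 libraries (log2 fold change -0.32 ± 0.08, adjusted p = 0.0073), and its call was lost with the neighbour offset (adjusted p = 0.0724). Tln1, the far more abundant talin at 73.1 ± 7.53 RPKM in mock beside 2.05 ± 0.07 RPKM for Tln2, had a log2 fold change of -0.20 ± 0.09 (adjusted p = 0.101).

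In the complex of ILK, PINCH and parvin the parts moved in different directions. Ilk, the scaffold of the complex, lay at 67.4, 70.9 and 62.2 cpm in mock and at 49.5, 58.7 and 53.9 cpm in METTL7A1 libraries. Its log2 fold change was -0.30 ± 0.08 (adjusted p = 0.0118), and the call was lost with the neighbour offset (adjusted p = 0.152). Lims1, which encodes PINCH1 (chr10:58323466-58424691, + strand), was higher, at 112, 122 and 117 cpm in mock and 154, 160.4 and 171 cpm in METTL7A1 libraries. The groups of Ilk and of Lims1 did not overlap. The log2 fold change of Lims1 was 0.47 ± 0.07 (adjusted p = 0.000389), but its neighbours had a median of 0.54, and relative to them the sign turned (-0.06, adjusted p = 0.536). Parva and Parvb, the parvins, had log2 fold changes of -0.05 ± 0.09 and 0.24 ± 0.18 (adjusted p = 0.698 and 0.323).

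Paxillin and focal adhesion kinase did not pass the test. Pxn lay at 111 to 129.7 cpm in mock and 108 to 118 cpm in METTL7A1 libraries (log2 fold change -0.11 ± 0.08, adjusted p = 0.285). Ptk2, which encodes focal adhesion kinase, lay at 174 to 185 cpm and 181 to 190.0 cpm in the same order (log2 fold change 0.06 ± 0.07, adjusted p = 0.487).

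The promoter windows of 3 adaptors that fell are shown because of the motifs they hold, again as the 250 bases before the start on the gene's strand. In Vcl (chr14:20929148-20929397, + strand) and Fermt2 (chr14:45530066-45530315, - strand) capitals mark the CArG box, which serum response factor reads. In Zyx (chr6:42349578-42349827, + strand) capitals mark TGAGTCA, which with TGACTCA makes up the AP-1 site.
Vcl: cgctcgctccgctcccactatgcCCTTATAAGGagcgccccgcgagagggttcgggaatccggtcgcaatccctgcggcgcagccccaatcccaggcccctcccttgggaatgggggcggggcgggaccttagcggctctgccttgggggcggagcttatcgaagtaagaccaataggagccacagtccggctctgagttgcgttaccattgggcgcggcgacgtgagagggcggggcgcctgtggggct
Fermt2: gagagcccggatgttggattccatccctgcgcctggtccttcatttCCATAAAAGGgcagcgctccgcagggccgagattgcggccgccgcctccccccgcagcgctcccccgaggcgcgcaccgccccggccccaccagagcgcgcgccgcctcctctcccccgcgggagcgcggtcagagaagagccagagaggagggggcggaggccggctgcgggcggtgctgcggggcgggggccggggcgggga
Zyx: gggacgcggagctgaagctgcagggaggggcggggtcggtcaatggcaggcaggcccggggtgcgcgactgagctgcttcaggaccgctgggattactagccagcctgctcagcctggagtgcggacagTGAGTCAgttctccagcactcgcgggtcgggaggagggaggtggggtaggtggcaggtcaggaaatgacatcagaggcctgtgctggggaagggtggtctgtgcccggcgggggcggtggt
A CArG box stood in 3 of the 33 members with a promoter (Fermt2, Itgb6 and Vcl) and in 1.47% of all promoters. Of these 3 genes, Itgb6 did not pass the test. An AP-1 site stood in Ddr1, Itgax and Zyx, and in 4.46% of all promoters, and of these Ddr1 rose. The Vcl, Fermt2 and Zyx windows also hold GGGCGG, left in lower case here.

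Of the 6 matrix receptors, 1 fell and 1 rose (33.3% called, beside 42.1% of all genes), and 4 did not pass the test. Sdc1, which encodes syndecan 1, the main heparan sulfate proteoglycan of epithelial surfaces (chr12:8771323-8793715, + strand), lay at 256, 258 and 219 cpm in mock and at 127, 151 and 166 cpm in METTL7A1 libraries. Its log2 fold change was -0.72 ± 0.10 (adjusted p = 0.00027), and the groups did not overlap. Its neighbours had a median of -0.46, and the call was lost with the neighbour offset (-0.26, adjusted p = 0.0795). Ddr1, the collagen receptor kinase (chr17:35681567-35704599, - strand), lay at 29.1, 29.0 and 26.2 cpm in mock and at 37.7, 41.9 and 40.1 cpm in METTL7A1 libraries. Every METTL7A1 library was above every mock library, with a log2 fold change of 0.51 ± 0.08 (adjusted p = 0.00044) and a neighbour median of 0.23.

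The other syndecans and CD44 stayed under the threshold. Sdc4, the syndecan of focal adhesions, had 244 to 293 cpm in mock and 273 to 391 cpm in METTL7A1 libraries, which overlapped (log2 fold change 0.31 ± 0.12, adjusted p = 0.0633), and was called in 6 alternatives, among them the fits without METTL7A1 replicate 1 and without mock replicate 2. Sdc2 and Sdc3 had log2 fold changes of -0.17 ± 0.09 and 0.23 ± 0.17. Cd44, the hyaluronan receptor and one of the most abundant matrix receptors at 126 ± 7.41 RPKM in mock and 124 ± 6.87 RPKM in METTL7A1 cells, had a log2 fold change of -0.02 ± 0.09 (adjusted p = 0.88).

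**Figure D4:**
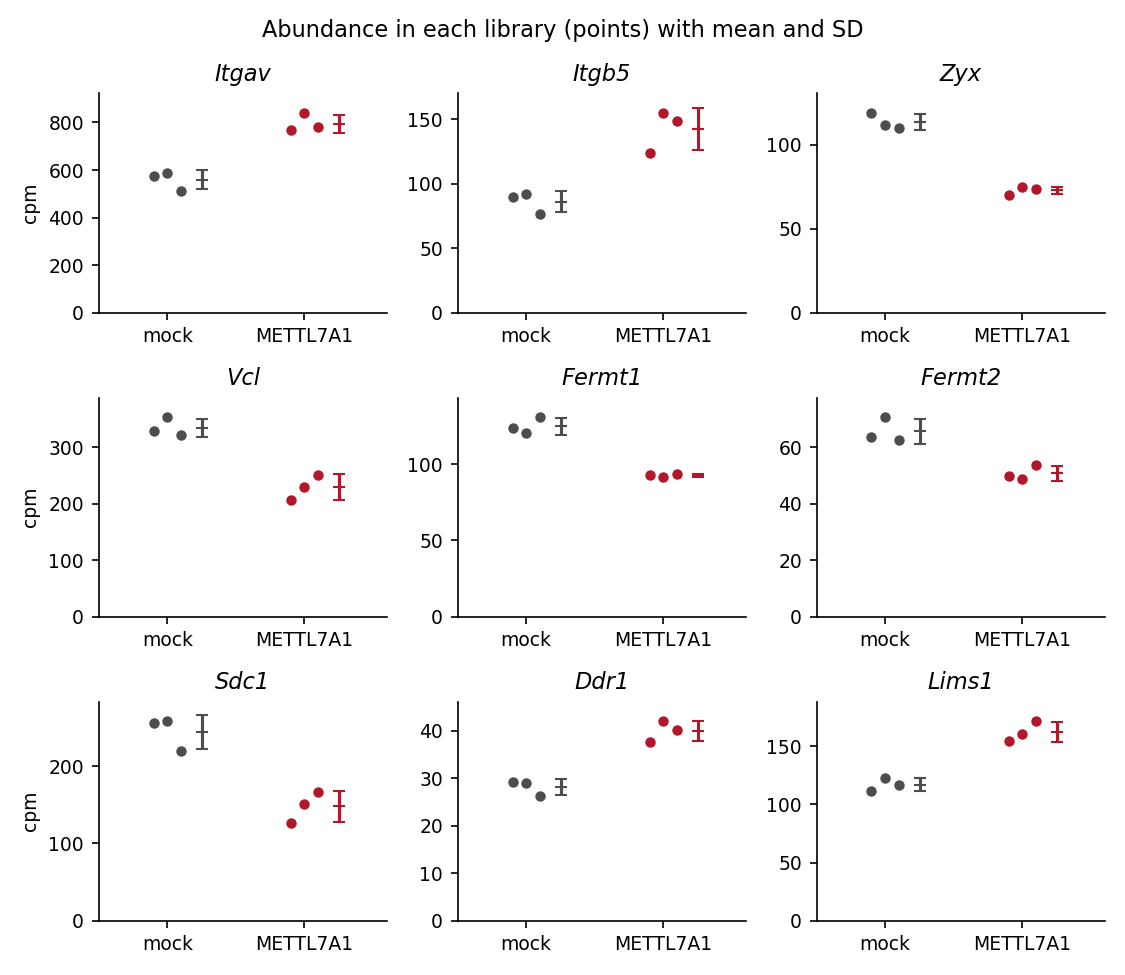
Abundance (y axis, cpm from 0) of 9 called members in each mock and METTL7A1 library (points), with the group mean and SD as a bar beside them. Itgav, Itgb5, Ddr1 and Lims1 are higher and Zyx, Vcl, Fermt1, Fermt2 and Sdc1 lower in all 3 METTL7A1 libraries than in any mock library.

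Further genes of the adhesion pathway were read from 4 lists, beside the 42.1% called among all genes. Of 50 cytoplasmic adhesion proteins outside the members, 46 were tested and 22 (47.8%) were called, 10 higher and 12 lower, and their median was -0.04. The 5 with the smallest p were Tns4 (log2 fold change 1.01), a tensin of epithelia that binds beta1 tails, Arhgef7 (0.73), the exchange factor beta-PIX, Tns2 (0.76), another tensin, Kank1 (0.71), which surrounds adhesions and binds talin, and Actn1 (-0.67), the actin crosslinker alpha-actinin 1. Actn1 lay in a region with a median of -0.43.

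Of 40 ligands of these receptors, 38 were in the table, 23 were tested and 13 (56.5%) were called, 6 higher and 7 lower. Tnc, which encodes the matrix protein tenascin-C, fell from 81.8 to 101 cpm in mock to 10.3 to 12.4 cpm in METTL7A1 libraries (log2 fold change -3.04). Edil3, an RGD protein bound by alphav integrins, fell by 3.09 on the log2 scale from a low level of 2.2 to 2.5 cpm. It lay at 0.16 to 0.34 cpm in METTL7A1 libraries and passed the abundance filter only through mock, which favoured a call. Spp1, which encodes osteopontin, an RGD ligand of alphav integrins, rose from 116 to 141 cpm to 283 to 383 cpm (1.43). Nid1 (2.16), the basement membrane linker nidogen 1, rose from under 1 cpm and passed the filter only through the METTL7A1 libraries, with the same limit. Vcam1 (-0.72), the counter-receptor of alpha4beta1, fell. For the alpha4 chain of that receptor the highest count was 1. Icam1, a counter-receptor of the beta2 integrins singled out after its values were seen, had a log2 fold change of -0.16 (adjusted p = 0.464).

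Of 13 tetraspanins and other lateral partners of integrins, 12 were tested and 8 (66.7%) were called, 7 higher and 1 lower, with a median of 0.33. The 5 with the smallest p all rose: Emp2 (0.95), Cd82 (0.93), Slc3a2 (0.58), the CD98 heavy chain that binds beta1 tails, Cd47 (0.53), the integrin-associated protein, and Bsg (0.50), basigin. Of 17 genes of endocytic traffic and calpains, 16 were tested and 8 (50%) were called, 5 higher and 3 lower, with a median of 0.08. Dab2 (1.24), Rab21 (0.49), Numb (-0.57), Arf6 (-0.61) and Snx17 (-0.38), which encode an endocytic adaptor of beta1 tails, an integrin-binding Rab, a second clathrin adaptor, a recycling GTPase and a recycling sorting nexin, had the smallest p. The neighbours of Arf6 had a median of -0.49, those of Numb -0.45 and those of Rab21 0.35, and among the lateral partners those of Bsg 0.32. These counts describe the lists, which were chosen with earlier results of these data known.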

How the data were processed

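Groups and replicate numbers came from the sample titles. The authors trimmed reads with BBDuk, aligned pairs to mm10 with STAR 2.5.3a, assigned them to Ensembl genes (featureCounts), and deposited the raw counts beside each gene's exon length. All count columns belonged to the 6 libraries. Strand settings are not given in the sources used here. In every library AY036118 outnumbered Gm42418, the gene on the other strand that contains it, which requires counting by strand, so partners on the opposite strand of Zyx, Vcl and Ilk should not add reads. AY036118 took 0.502 to 13.1% of the counts.

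The filter of the study (at least 1 cpm in at least 3 libraries) was used. Libraries were scaled by TMM and compared with edgeR 4.0.16 (glmQLFit, glmQLFTest) in R 4.3.3, with no covariate and Benjamini-Hochberg adjustment over 13166 genes. SE is the log2 fold change divided by the square root of F. The log base of the study's threshold was taken as 2. RPKM is counts per kilobase of listed exon length on TMM-scaled cpm. A count of 0 was read with a floor of 3 counts, and floors cover counting error only. In simulated data with 200 changed genes of 13166, 100% were recovered. Every planted change was larger than that of any member but Itgb2. The simulation also gave all genes the same dispersion, so it does not measure how well smaller changes are found.

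The members, lists and motifs were chosen with earlier results of these data known. Values in every library are given for called integrin subunits, for any member past the study's thresholds and for the 10 other members with the smallest adjusted p, and at most 5 called genes are named per list. Alternatives were scaling by upper quartile or RLE, a filter of at least 10 counts per library or none, leaving out the 20 genes with most counts, a replicate block, fits without each library, voom in limma 3.58.1, DESeq2 1.42.0 and the neighbour offset. Promoters came from RefSeq (GRCm38.p6), and coordinates of genes are those of the deposited table (mm10, counted from 1). Itgb2, Itgal, Itgad, Itgb3, Itga6, Itga7, Itgb4, Itgae, Tln2, Parva, Pxn, Ptk2 and Sdc2 had no entry in the promoter table used.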

Additional observations from a re-analysis of the deposited data

How the results depend on the processing

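Of the 15 called members, all 15 kept their call and direction under every alternative except the neighbour offset. With that offset 8 of them and Itga6 were called, 9 in all (4 higher and 5 lower), beside 31.5% of all genes. Without 1 library at a time, 15 to 19 of 35 members were called, beside 29.1 to 44.5% of all genes in those fits. The share of 44.5% belongs to the fit without mock replicate 3. The 19 came without mock replicate 3, which added Itga3, Itga6, Tln1 and Parvb, and Sdc4 was added without METTL7A1 replicate 1 or without mock replicate 2. Itgb2 alone passed the study's thresholds under each alternative (log2 fold change 2.03 to 2.44). Signs turned for Lims1, which was called, and otherwise for members that were not called. With the neighbour offset the values were 0.011 for Itgb6, 0.050 for Itgb1, -0.065 for Lims1, 0.020 for Parva, -0.037 for Parvb, 0.0067 for Pxn, -0.050 for Ptk2 and 0.017 for Sdc2. With no abundance filter they were 0.0079 for Itgb6 and 0.015 for Cd44. Without 1 library they ranged from -0.064 to 0.0098 for Itgb6, -0.053 to 0.031 for Cd44, -0.27 to 0.11 for Fermt3 and -0.13 to 0.021 for Parva. The offset subtracts the regional median by construction, and the cause of the other turns was not tested. Itga3 was itself among the 20 most abundant genes and has no value without them.

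Replicate numbers did not pair the samples: the deviations of same-numbered libraries correlated at -0.15, 0.20 and -0.37. With the number as a replicate block, 15 of 35 members were called, beside 36.5% of all genes, and no call changed. Members with under 10 cpm, such as Itga8, Itga1, Itga10 and Fermt3, had the widest SE (0.14 to 0.24), so small differences in them were not detectable at this depth.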
